A study of Mus musculus with 2 samples.

Results

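The broad H3K36me2 domains of the mouse colon are the called regions of at least 10000 bp on a numbered chromosome. They were selected on width alone, so their width, and every count that follows from it, is a description and not a result. The list of the *Nsd2* fl/fl library held 675 such domains among its 19969 autosomal regions, a share of 3.38% (95% Wilson interval 3.14% to 3.64%). The list of the *Nsd2* ΔIE library held 162 among 23507, a share of 0.689% (0.591% to 0.803%). These Wilson intervals, as all those below, cover counting error only. For each domain the question was what the other library's list held in the same interval: another domain, smaller regions, or nothing.

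The mark was measured by CUT&Tag, in which the transposase Tn5 is brought to an antibody bound on chromatin and tags the DNA around it for sequencing. There was 1 colon library per genotype, both from male C57BL/6J mice on a high-fat, high-cholesterol diet (HFCD) that began at 7 to 8 weeks of age and lasted 16 weeks by the deposited design text and 18 weeks by the study's methods. In *Nsd2* ΔIE mice a Cre recombinase under the promoter of villin, a gene of the intestinal epithelium, deletes the floxed *Nsd2* alleles that the *Nsd2* fl/fl littermates keep. The colon also holds muscle, stroma, nerve and immune cells in which *Nsd2* is not deleted, and in such bulk tissue fewer cells with the mark and less mark per cell cannot be told apart. With 1 library per genotype no comparison between the genotypes has a replicate check, and none was tested. The number of reads behind each list is unknown. Coordinates are those of the lists. The processing notes name a human build, which cannot apply to mouse chromosomes and genes, so the build is taken as unstated.

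H3K36me2 is the dimethylated form of lysine 36 of histone H3. It is deposited by NSD2 and its relatives NSD1, NSD3 and ASH1L, and it typically lies over gene bodies and the sequence between genes in stretches much longer than the peaks of promoter marks. It hampers the spread of H3K27me3 by the Polycomb complex PRC2 and is bound by the DNA methyltransferase DNMT3A.

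The domains lay often over the start of a gene, and promoters of 6 such genes are printed to show what kind of sequence the domains spanned. They are the RefSeq promoters of build GRCm38.p6, from 250 bases before to 50 bases after the transcription start site (TSS), matched to the lists by gene name and written 5′ to 3′ with each CG dinucleotide, the site of DNA methylation, in capitals. They stand for a domain of both lists (*Vil1*), domains of the *Nsd2* fl/fl list that met smaller regions (*Jag2*, *Ppard*, *Acly*) and domains of the *Nsd2* ΔIE list that met smaller regions (*Nudt14*, *Wfs1*). For *Jag2* and *Nudt14* the printed start is not the listed one but lies within 3 kb of it.
*Vil1*, chr1:74409134-74409433, plus strand: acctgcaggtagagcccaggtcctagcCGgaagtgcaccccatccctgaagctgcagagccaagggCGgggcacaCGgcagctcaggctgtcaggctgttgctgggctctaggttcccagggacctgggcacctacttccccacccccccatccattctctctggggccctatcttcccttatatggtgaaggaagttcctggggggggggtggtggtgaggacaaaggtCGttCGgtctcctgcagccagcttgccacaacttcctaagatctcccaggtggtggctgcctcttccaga
*Jag2*, chr12:112929446-112929745, minus strand: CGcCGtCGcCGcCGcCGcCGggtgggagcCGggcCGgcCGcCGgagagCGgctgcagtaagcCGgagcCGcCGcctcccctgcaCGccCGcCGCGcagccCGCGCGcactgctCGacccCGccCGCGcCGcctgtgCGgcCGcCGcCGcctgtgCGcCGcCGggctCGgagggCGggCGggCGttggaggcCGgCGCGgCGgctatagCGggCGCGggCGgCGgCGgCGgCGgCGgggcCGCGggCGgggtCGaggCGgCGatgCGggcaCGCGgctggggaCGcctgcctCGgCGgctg
*Nudt14*, chr12:112942093-112942392, minus strand: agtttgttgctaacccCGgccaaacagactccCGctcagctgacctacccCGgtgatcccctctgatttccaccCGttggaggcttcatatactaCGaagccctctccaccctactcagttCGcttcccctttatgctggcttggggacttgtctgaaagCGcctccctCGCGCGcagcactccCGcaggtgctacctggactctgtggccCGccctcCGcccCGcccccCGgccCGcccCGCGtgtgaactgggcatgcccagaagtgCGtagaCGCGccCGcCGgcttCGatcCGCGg
*Ppard*, chr17:28232504-28232803, plus strand: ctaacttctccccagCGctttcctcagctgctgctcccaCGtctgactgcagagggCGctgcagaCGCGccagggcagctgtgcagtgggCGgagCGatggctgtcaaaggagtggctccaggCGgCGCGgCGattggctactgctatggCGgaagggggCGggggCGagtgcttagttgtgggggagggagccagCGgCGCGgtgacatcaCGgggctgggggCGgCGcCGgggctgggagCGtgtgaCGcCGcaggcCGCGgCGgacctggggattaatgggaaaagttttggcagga
*Acly*, chr11:100527951-100528250, minus strand: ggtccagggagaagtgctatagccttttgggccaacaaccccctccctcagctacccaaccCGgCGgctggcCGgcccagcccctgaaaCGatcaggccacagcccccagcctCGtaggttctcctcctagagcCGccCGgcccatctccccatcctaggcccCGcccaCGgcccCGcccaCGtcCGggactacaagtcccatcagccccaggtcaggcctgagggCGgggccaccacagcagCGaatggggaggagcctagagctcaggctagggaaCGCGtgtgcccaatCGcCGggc
*Wfs1*, chr5:36988933-36989232, minus strand: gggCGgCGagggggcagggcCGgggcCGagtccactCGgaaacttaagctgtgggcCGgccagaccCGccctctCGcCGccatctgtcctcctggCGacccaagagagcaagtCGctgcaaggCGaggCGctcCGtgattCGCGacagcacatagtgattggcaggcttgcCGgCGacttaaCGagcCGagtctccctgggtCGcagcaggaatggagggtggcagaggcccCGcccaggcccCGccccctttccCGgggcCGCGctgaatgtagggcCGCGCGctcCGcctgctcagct
The number of CG dinucleotides in these 300 bases ran from 5 in *Vil1* to 63 in *Jag2*, with 26 in *Nudt14*, 27 in *Ppard*, 18 in *Acly* and 30 in *Wfs1*, so broad domains spanned promoters with few and with many such sites. Of the genes whose start lay in an *Nsd2* fl/fl domain, 203 of 282 had an entry in the promoter table, which is under 80%, and a comparison of CG content between domains and other regions was therefore void.

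The number of domains followed the width of the whole list. The median autosomal region was 4643 bp wide in the *Nsd2* fl/fl list, against 3426 bp in the *Nsd2* ΔIE list, a ratio of 0.738. The ratio of the lists' widths was 0.730 at the 25th percentile, 0.712 at the 95th, 0.703 at the 99th and 0.660 at the 99.9th, where the widths were 21120 bp and 13937 bp. The *Nsd2* ΔIE regions were thus narrower along the whole distribution, and somewhat more so at the broad end. The 675 widest *Nsd2* ΔIE regions reached down to 7378 bp. Domains held 8.43% of the called autosomal length of the *Nsd2* fl/fl list, 8682044 bp, and 2.29% of that of the *Nsd2* ΔIE list, 2017512 bp.

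**Figure D1:**
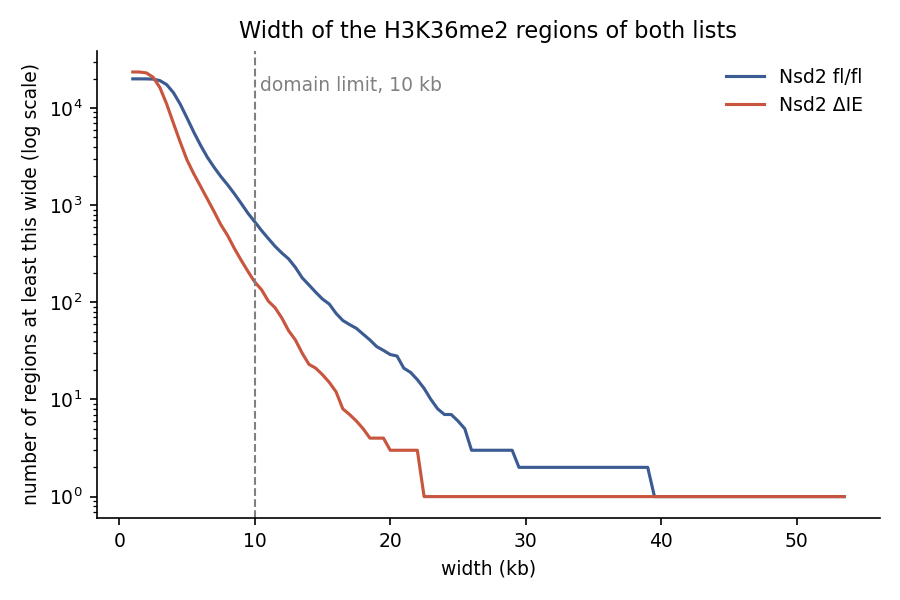
Number of autosomal H3K36me2 regions (log scale) that are at least as wide as the value on the horizontal axis (kb), for the *Nsd2* fl/fl and *Nsd2* ΔIE lists, with the domain limit of 10 kb dashed. The *Nsd2* ΔIE curve lies under the *Nsd2* fl/fl curve from 3 kb on, with 162 against 675 regions at the limit, and both end in 1 region of over 53 kb.

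Among themselves the domains were mostly just over the limit. Their median width was 11801 bp (*Nsd2* fl/fl) and 11640 bp (*Nsd2* ΔIE), 108 and 18 of them were 15000 bp or wider, and 29 and 3 were 20000 bp or wider. The limit divides a continuous range. Just inside it in *Nsd2* fl/fl were the regions at *Adamtsl4* (10002 bp), *Msantd1* (10003 bp) and *Gm39628* (10003 bp), and just outside it those at *Ctrb1* (1 bp short of it), *Mir6996* (9989 bp) and *Gm11448* (9986 bp). In *Nsd2* ΔIE the regions just inside were at *Hdac4* (10025 bp), *Myo19* (10026 bp) and *Tns1* (10039 bp), and those just outside at *Pmepa1* and *Fasn* (both 9966 bp) and *Trpm5* (9961 bp). The lists give a summed signal per region, and divided by width its median was 6.44 per bp in *Nsd2* fl/fl domains and 6.13 per bp in narrower regions. The corresponding values of the *Nsd2* ΔIE list were 6.77 and 6.32 per bp. Domains were therefore wide without being much stronger per base.

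Widths in these lists also depend on how the regions were called. Neighbouring regions of the *Nsd2* fl/fl list were never closer than 485 bp, and those of the *Nsd2* ΔIE list never closer than 357 bp. The lowest summed signal of a region was 21783 and 16571. The part of these limits and of sequencing depth in the number of domains was not tested. When both lists were joined at gaps of up to 485 bp, 675 and 193 domains resulted, and with a joining distance of 1 kb, 873 and 297.

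Few domains of the *Nsd2* fl/fl list had a broad counterpart. A domain was counted as kept when it shared at least 1 bp with a region of 10000 bp or more of the other list, and 38 of 675 were, a share of 5.63% (4.13% to 7.63%). The background was 0.946% of all autosomal *Nsd2* fl/fl regions, and since wider regions meet others more easily, nothing is read from the excess over it. Another 483 domains, 71.6% (68.0% to 74.8%), met smaller *Nsd2* ΔIE regions only, and 154, 22.8% (19.8% to 26.1%), met none. Over all autosomal *Nsd2* fl/fl regions 65.9% met none.

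Of the 162 *Nsd2* ΔIE domains, 38 were kept, a share of 23.5% (17.6% to 30.5%), where the background over all autosomal *Nsd2* ΔIE regions was 3.14%. A further 99, 61.1% (53.4% to 68.3%), met smaller *Nsd2* fl/fl regions only. The remaining 25, 15.4% (10.7% to 21.8%), met none, beside 69.3% of all autosomal *Nsd2* ΔIE regions. The same 38 pairs gave the kept domains on either side, so the difference between 5.63% and 23.5% restated that the *Nsd2* fl/fl list had more domains. With equal numbers, the 675 widest regions of each list, 12.7% of the *Nsd2* fl/fl and 12.9% of the *Nsd2* ΔIE regions were kept. The order of the absent shares turned, with 22.8% of the *Nsd2* fl/fl against 27.0% of the *Nsd2* ΔIE regions.

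**Figure D2:**
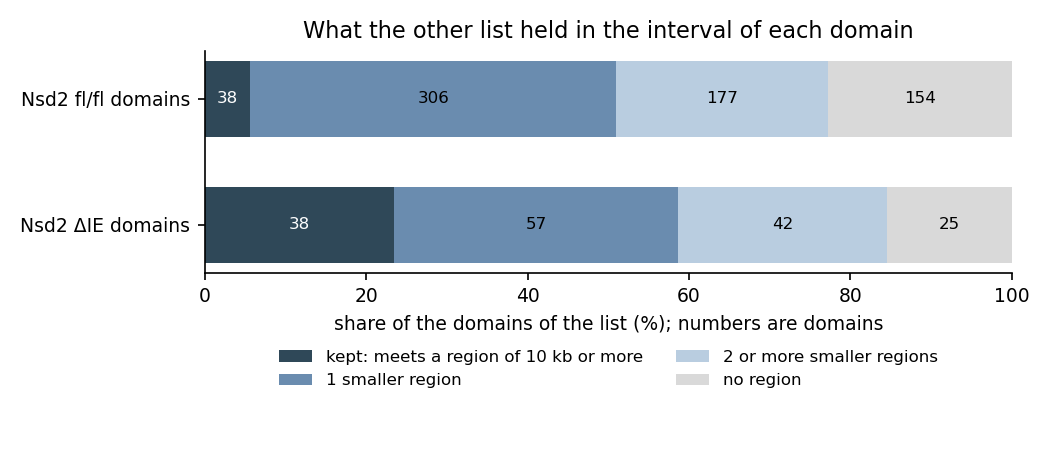
Share (%) of the 675 *Nsd2* fl/fl and 162 *Nsd2* ΔIE domains that met a region of 10 kb or more of the other list, 1 smaller region, 2 or more smaller regions, or no region, with the number of domains in each part. Smaller regions were the most frequent finding for both lists, 483 of 675 and 99 of 162 domains.

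Whether a region was met at all differed with its width in both lists. Of the *Nsd2* fl/fl regions under 3000 bp 29.7% met an *Nsd2* ΔIE region, of those of 4000 to 5000 bp 27.5% met an *Nsd2* ΔIE region, of those of 8000 to 10000 bp 62.9%, of those of 10000 to 15000 bp 74.4%, and of those of 15000 bp or more 91.7%. For *Nsd2* ΔIE regions the corresponding shares were 25.1%, 32.1%, 71.1%, 82.6% and 100% (18 of 18). A wider region has more bases that can be met, which does not hold for the share of length covered. The other list covered 20.9% of the length of *Nsd2* fl/fl regions under 3000 bp, 16.0% of those of 4000 to 5000 bp, 31.2% of those of 10000 to 15000 bp and 42.2% of those of 15000 bp or more. For *Nsd2* ΔIE regions it covered 19.5%, 21.6%, 50.9% and 71.8%. Base by base, the broadest intervals were thus the ones most often marked in both libraries, and the curves passed the limit of 10000 bp without a step.

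**Figure D3:**
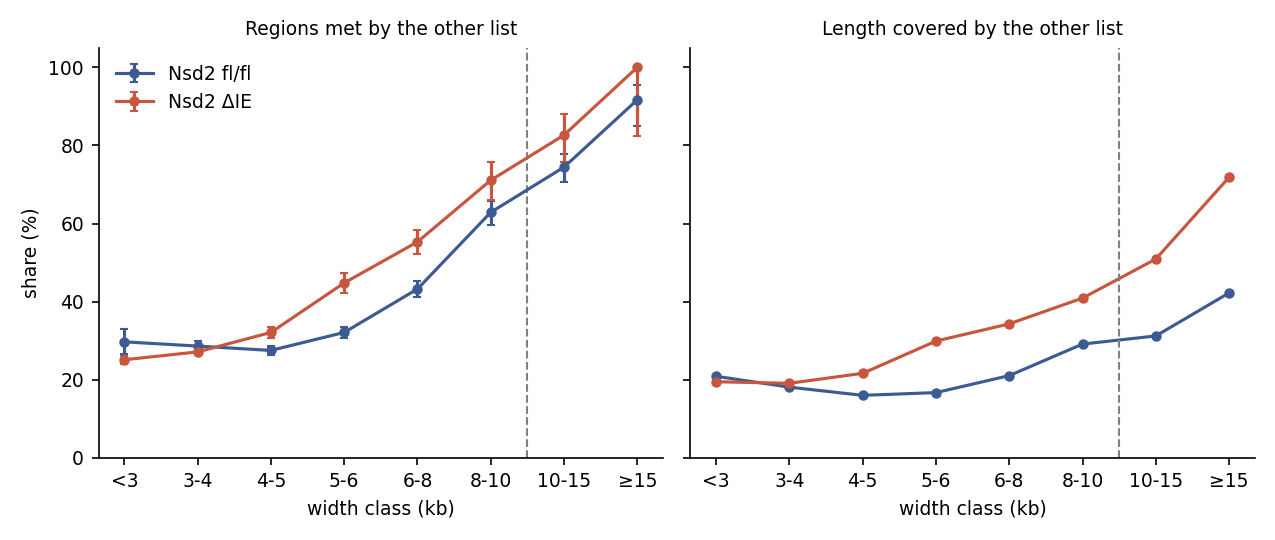
Share (%) of the regions met by the other list (left, bars are 95% Wilson intervals) and share of their length that it covered (right), by width class (kb) of the *Nsd2* fl/fl and *Nsd2* ΔIE lists, with the domain limit dashed. From 5 kb upwards both measures were higher in each wider class, up to 91.7% and 100% of regions met and 42.2% and 71.8% of length covered at 15 kb or more.

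The *Nsd2* fl/fl domains met only by smaller regions most often met a single, much shorter one. Of the 483 domains met only by smaller *Nsd2* ΔIE regions, 306 met 1, 153 met 2, 20 met 3 and 4 met 4. Those with 1 region were covered over a median of 28.4% of their width, those with 2 or more over 52.6%. The 688 smaller regions had a median width of 3775 bp, against 3426 bp in their whole list, and 434 of them (63.1%) lay wholly inside the domain. In 159 of the 483 domains the widest of them was at least 5000 bp. Where several lay in a domain, the 205 gaps between them had a median of 2596 bp (387 to 13366 bp), and 33 gaps were under 1 kb. In the other direction, 57 of the 99 *Nsd2* ΔIE domains met 1 smaller *Nsd2* fl/fl region, 37 met 2 and 5 met 3. The median covered was 44.1% and 62.1% of the width. Summed length gave the same order, with 33.8% of the *Nsd2* fl/fl domain length and 54.5% of the *Nsd2* ΔIE domain length lying in regions of the other list.

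The absent domains were narrower and weaker per base than the others. In *Nsd2* fl/fl the median width was 13741 bp for kept, 12086 bp for partly met and 11144 bp for absent domains, and the median signal was 7.38, 6.53 and 5.90 per bp. In *Nsd2* ΔIE the median widths were 12344, 11589 and 11192 bp, and the median signals 7.11, 6.71 and 5.98 per bp. Absent meant without overlap, at any distance. The nearest *Nsd2* ΔIE region lay at a median of 8488 bp from the 154 absent *Nsd2* fl/fl domains, within 5 kb of 60 of them and beyond 50 kb of 15. For 97 of the 154 (63.0%) the nearest gene had a region elsewhere in the *Nsd2* ΔIE list, and for 15 of the 25 absent *Nsd2* ΔIE domains it had one in the *Nsd2* fl/fl list. The same distances and shares were not taken over all regions, so these counts have no background and nothing is read from them.

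The 38 kept pairs differed in how well they matched. Both edges lay within 1 kb of each other in 8 pairs, and each domain shared at least 90% of its width with the other in 9 pairs and at least 50% in 31. The 9 pairs, named after their values were seen, mostly had a high signal per bp. *Mroh2a*, *Hjurp*, *Trpm8*, *Sfi1*, *Vil1* and *2700054A10Rik* stood at 2.28 to 19.8 times the median of their list. *Mir3087*, *Ncln* and *Nol4l* stood at 1.12 to 1.35 times. The 8 pairs with matching edges were among these 9. The *Nsd2* fl/fl domain was the wider of the pair in 24 and the *Nsd2* ΔIE domain in 14, with a median width ratio of 0.924 of *Nsd2* ΔIE to *Nsd2* fl/fl. The widest pair lay at *Mroh2a*, which encodes a HEAT-repeat protein, chr1:88138912-88192680. It was 53769 bp wide in *Nsd2* fl/fl, 53527 bp wide in *Nsd2* ΔIE, with offsets of the *Nsd2* ΔIE edges of 54 bp at the start and -188 bp at the end. The next domains on the chromosome, at *Hjurp*, a chaperone of the centromeric histone CENP-A, and *Trpm8*, a cold-sensitive ion channel, were also kept, with 14637 and 14508 bp and with 17433 and 15736 bp. From the first to the last of these domains *Nsd2* fl/fl regions covered 90.8% of 100207 bp and *Nsd2* ΔIE regions 90.3% of 99645 bp.

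These domains also had a signal far above the rest. Per bp it was 29.6 and 28.8 at *Mroh2a*, 23.1 and 19.2 at *Hjurp*, and 20.7 and 19.4 at *Trpm8*, whereas no region within 200 kb on either side passed 6.62 per bp (*Nsd2* fl/fl) or 8.68 per bp (*Nsd2* ΔIE). Higher values still were listed for *Sfi1*, which encodes a centrosome protein, with 121 and 110 per bp over 16456 and 16801 bp, and for *Vil1*, which encodes villin, with 64.9 and 76.8 per bp over 13184 and 13479 bp. *Vil1* is the gene whose promoter drives the Cre, and the *Nsd2* fl/fl library, too, had this high signal there. Whether the *Nsd2* fl/fl mice also carried the transgene, and its part in the signal at *Vil1*, was not tested. These 2 were the only domains above 5 times the median of their list. Without them 36 pairs were left, a kept share of 5.35% and 22.5%.

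Among the other kept pairs the signal was mostly nearer to that of the lists. At *Wnt7b*, a Wnt ligand, the domains of 16440 and 12328 bp began 4 bp apart, with 7.16 and 7.24 per bp. *Wnt7b* was singled out after its values were seen, as was *Plxnb1*, a semaphorin receptor, where the *Nsd2* ΔIE domain of 13893 bp contained the *Nsd2* fl/fl domain of 11338 bp. The pair at *LOC118568117* had 20268 and 22190 bp with 18158 bp in common, with 9.40 per bp in *Nsd2* fl/fl, and that at *2700054A10Rik*, also singled out afterwards, had 14.1 and 14.4 per bp, where the 95th percentile of domains was 7.86 and 8.59 per bp. Among the 10 widest, the *Nsd2* fl/fl domain of 23599 bp at *4930512J16Rik* counted as kept through 4311 bp shared with the *Nsd2* ΔIE domain of 18135 bp at the neighbouring *Plxna1*, another semaphorin receptor.

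The other *Nsd2* fl/fl domains among the 10 widest met smaller regions only. At *Gm13132* on chromosome 4 a domain of 39226 bp, chr4:154297861-154337086, met *Nsd2* ΔIE regions of 7502 and 6297 bp, which covered 35.2% of it and were annotated to *Megf6*. At *Susd2*, a membrane protein gene, a domain of 29316 bp, chr10:75472099-75501414, met 4 regions of 5606, 6038, 3461 and 2388 bp, covering 57.5%. At *Jag2*, which encodes a ligand of Notch receptors, a domain of 25802 bp, chr12:112872522-112898323, met 4 regions of 5875, 5712, 3072 and 3843 bp, covering 62.2%. The listed start of *Jag2* lay in none of them. The CG-rich promoter printed above belongs to another start of *Jag2*, 2792 bp from the listed one. The rest of the 10 widest were at *Mir7032* (25646 bp, 22.6% covered by 2 regions), *Slc45a4*, a solute carrier gene (25444 bp, 32.7% by 1), *Mir7118* (24624 bp, 35.3% by 1), *Mir6921* (23347 bp, 41.0% by 3) and *Mir3104* (23338 bp, 78.5% by 4). A microRNA was the nearest gene of 24 of the 675 *Nsd2* fl/fl domains and of 7 of the 162 *Nsd2* ΔIE domains. The shares were 3.56% (2.40% to 5.24%) and 4.32% (2.11% to 8.65%), beside 2.40% and 2.28% of all regions, which are at or inside the lower ends of these intervals. The fourth interval that met 4 regions was at *Gm39269* (20781 bp, 71.7%).

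Of the 10 widest *Nsd2* ΔIE domains, several were kept, and others met smaller *Nsd2* fl/fl regions. At *Nudt14*, which encodes a nucleotide-sugar hydrolase, a domain of 22383 bp, chr12:112905617-112927999, met a single region of 4274 bp, 19.1% of it. It stood between the *Jag2* domain of the *Nsd2* fl/fl list, 7293 bp away, and the *Nsd2* fl/fl domain of 13202 bp at *Brf1*, 5907 bp away, so that along this piece of chromosome 12 the broad regions of the lists alternated without overlap. At *Wfs1*, which encodes the endoplasmic reticulum protein wolframin, a domain of 17626 bp, chr5:37128894-37146519, met regions of 8632 and 5826 bp, 82.0% of it. *Zswim4* had an *Nsd2* ΔIE domain of 16313 bp that was 50.2% covered by 2 regions. The *Nsd2* ΔIE domains of 17310 bp at *Gm16315* and 16263 bp at *Gm52400* were kept, at 12623 and 10580 bp. The 5 *Nsd2* ΔIE domains that met the most regions, 3 each, were at *Spata20* (15440 bp), *Gm46527* (14506 bp), *5031439G07Rik* (13440 bp), *Mtss2* (13020 bp) and *Gm51810* (11564 bp).

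**Figure D4:**
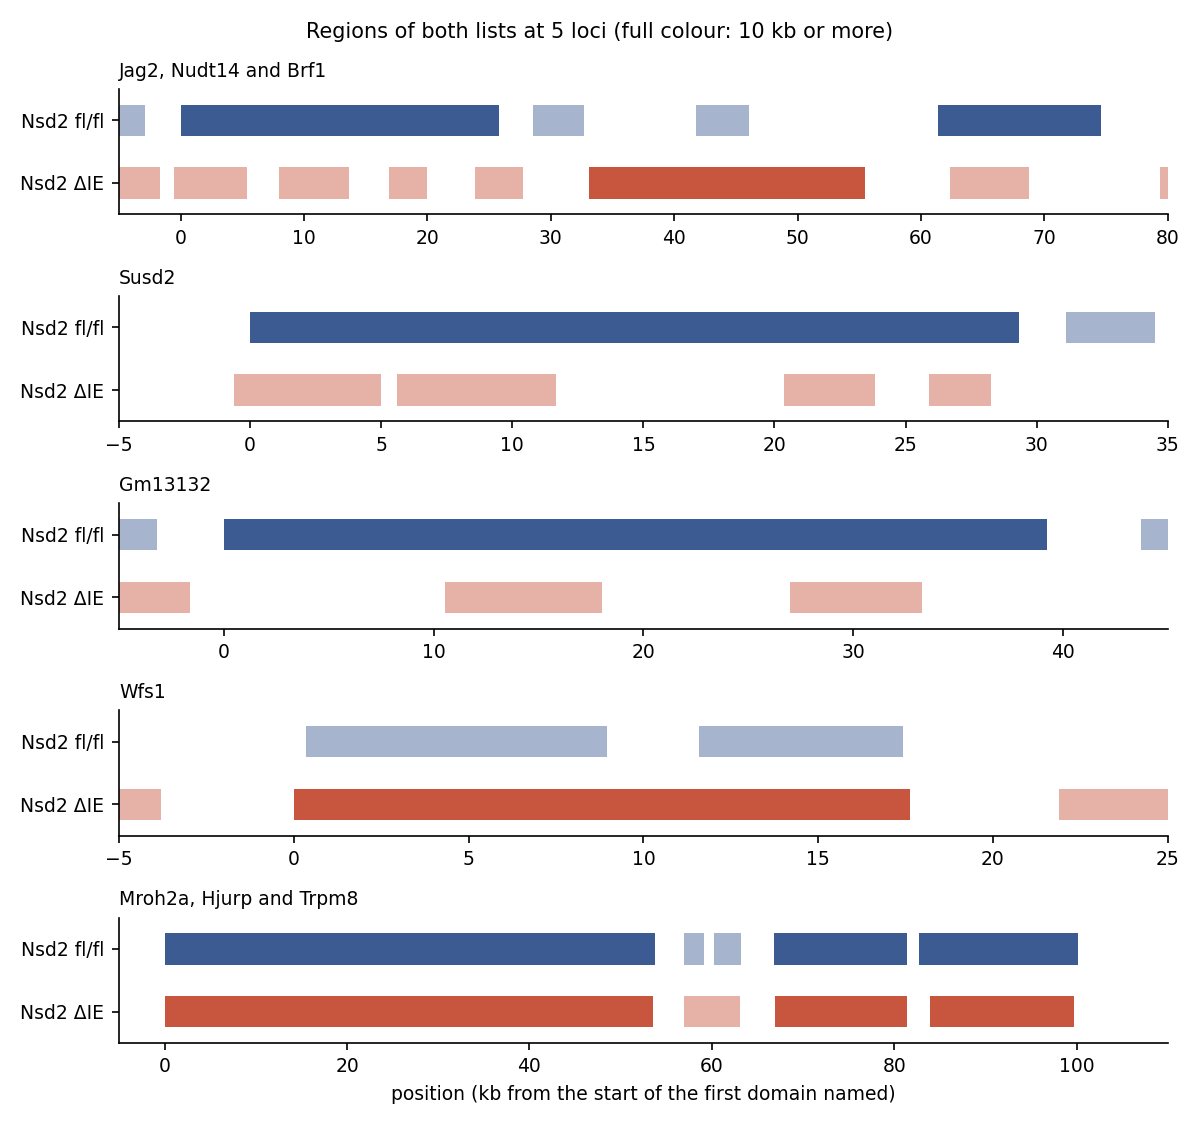
Autosomal regions of the *Nsd2* fl/fl (blue) and *Nsd2* ΔIE (red) lists at 5 loci, in kb from the start of the first domain named, with regions of 10 kb or more in full colour and smaller ones pale. Domains of the lists alternate at *Jag2*, *Nudt14* and *Brf1*, single domains face 2 to 4 smaller regions at *Susd2*, *Gm13132* and *Wfs1*, and the edges nearly coincide at *Mroh2a*, *Hjurp* and *Trpm8*.

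The widest domains with nothing in the other list were shorter. In *Nsd2* fl/fl they lay at *Pak4*, a kinase of the actin cytoskeleton (21115 bp, nearest *Nsd2* ΔIE region 9970 bp away), *Mir705* (17041 bp, 33 bp), *Mir182* (16494 bp, 4747 bp), *Epas1*, which encodes the hypoxia-inducible factor HIF-2α (16113 bp, 6397 bp), and *LOC115488421* (16099 bp, 33408 bp). In *Nsd2* ΔIE they included *Pfkfb4*, a regulator of glycolysis (14233 bp, nearest *Nsd2* fl/fl region 15186 bp away), *Foxd2*, a forkhead transcription factor (13572 bp, 1677 bp), *Gm34844* (12833 bp, 7793 bp) and *Mpped1* (12446 bp, 21466 bp). At *Mir705* only 33 bp separated the domain from a region of the other list, so that absence there rested on where an edge was drawn. *Gm34844* carried another domain of 10069 bp in *Nsd2* fl/fl, which also had no counterpart.

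Domains lay at promoters more often than the rest of their lists. The authors' annotation counts up to 3 kb before or after a TSS as promoter, and 381 of the 675 *Nsd2* fl/fl domains, 56.4% (52.7% to 60.1%), and 91 of the 162 *Nsd2* ΔIE domains, 56.2% (48.5% to 63.6%), were promoter regions. The background was 32.1% of all autosomal *Nsd2* fl/fl regions and 27.8% of all autosomal *Nsd2* ΔIE regions. Distal intergenic were 27 of the 675 *Nsd2* fl/fl domains and 5 of the 162 *Nsd2* ΔIE domains, beside 3598 of 19969 and 4734 of 23507 of all regions, and intronic 9.93% and 6.17% of the domains, beside 21.1% and 23.6%. Annotated to a 3′ UTR were 10.8% and 14.2% of the domains, beside 1573 and 1646 of all regions, that is 7.88% in *Nsd2* fl/fl. ChIPseeker, which the processing notes name, by default puts a promoter before any other feature, and a wider region reaches a TSS more easily. Per length, *Nsd2* fl/fl domains held 0.392 gene starts of the lists' annotation per 10 kb and narrower regions 0.358. In *Nsd2* ΔIE the values were 0.362 and 0.336. The lists name only the nearest transcript of each region, so further starts inside a wide domain can go uncounted. The size of the difference per length therefore cannot be decided from these values. Promoter annotation was listed for 71.1% of kept, 58.2% of partly met and 47.4% of absent *Nsd2* fl/fl domains, whose widths were also smaller in that order, and for 65.8%, 56.6% and 40.0% of the *Nsd2* ΔIE domains.

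Around the TSS the domains more often reached further into the gene than away from it. The same was not measured in narrower regions that hold their TSS, so it cannot be called particular to domains. The annotated TSS lay inside 284 *Nsd2* fl/fl and 62 *Nsd2* ΔIE domains. Their median extent was 5555 bp upstream and 7678 bp downstream in *Nsd2* fl/fl, with the longer arm downstream in 160 of 284 (56.3%, 50.5% to 62.0%). In *Nsd2* ΔIE it was 4696 bp upstream and 7444 bp downstream, with the longer arm downstream in 40 of 62 (64.5%, 52.1% to 75.3%). At genes of 10000 bp or more the shares were 81 of 135 (60.0%, 51.6% to 67.9%) and 22 of 33 (66.7%, 49.6% to 80.2%). At shorter genes they were 79 of 149 (53.0%) and 18 of 29 (62.1%), and their intervals, like that of the 33 longer genes, include an even split. The strongest point of the domain, as the lists name it, lay within 1 kb of the TSS in 35 of 284 and 7 of 62 domains. Its median distance from the TSS was 3922 bp and 3726 bp. No background was taken for a point placed anywhere in such wide domains or for narrower regions, so nothing is read from these values.

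The start of these longer genes was less often marked by the other list in *Nsd2* fl/fl domains than in *Nsd2* ΔIE domains, as was the domain length. Of the 135 *Nsd2* fl/fl domains, 33 (24.4%) had their TSS in an *Nsd2* ΔIE region, while 35.6% of the positions 5 kb downstream and 26.7% of those 5 kb upstream lay in one. Of the 33 *Nsd2* ΔIE domains, 18 (54.5%) had their TSS in an *Nsd2* fl/fl region, with 57.6% 5 kb downstream and 33.3% 5 kb upstream. With 33 domains each step of the latter profile stands for few domains. The strongest point of an *Nsd2* fl/fl domain lay in an *Nsd2* ΔIE region in 246 of 675 cases (36.4%), close to the 33.8% of domain length covered, and that of an *Nsd2* ΔIE domain in an *Nsd2* fl/fl region in 88 of 162 (54.3%), where 54.5% of length was covered. The regions of the other list were thus found at the strongest point of a domain about as often as anywhere in it.

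**Figure D5:**
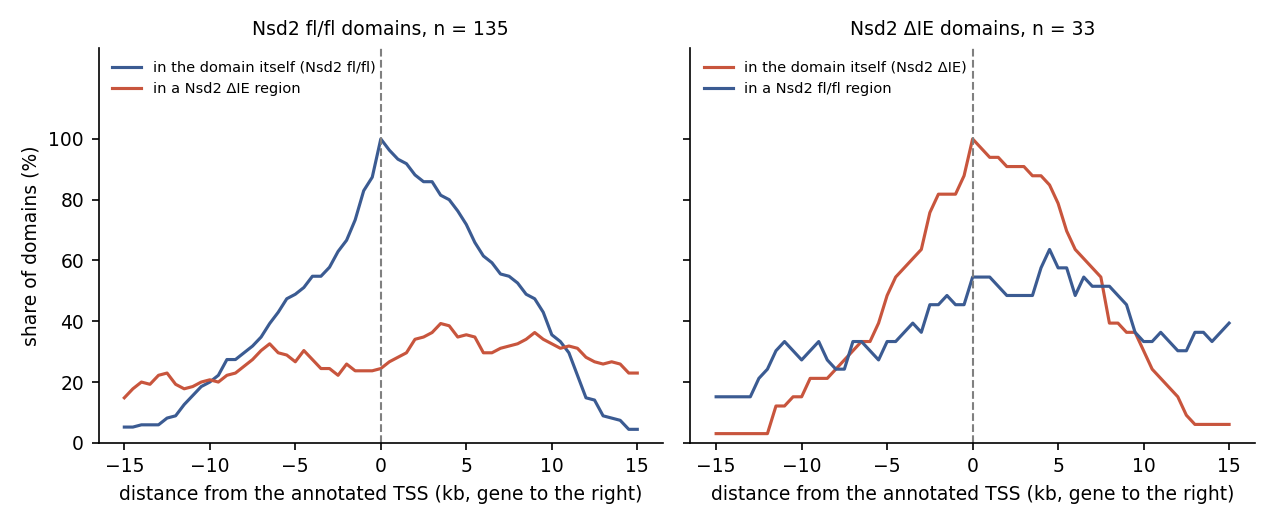
Share (%) of domains that hold the annotated TSS of a gene of 10 kb or more in which a position, in kb from the TSS with the gene to the right, lay in the domain itself or in a region of the other list, for 135 *Nsd2* fl/fl (left) and 33 *Nsd2* ΔIE (right) domains. The domains' own share is 100% at the TSS by selection and is higher to the right than to the left, and the other list covered 24.4% and 54.5% of the starts.

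Regions were assigned to the nearest gene of the annotation, which a region need not overlap. The *Nsd2* fl/fl domains were assigned to 648 genes, 3.57% of the 18176 genes with an autosomal region in either list. The *Nsd2* ΔIE domains were assigned to 160 genes, 0.88%. There were 41 genes with a domain in both, 6.33% of the *Nsd2* fl/fl and 25.6% of the *Nsd2* ΔIE genes. Of 278 genes on lists of colon cell types, transcription factors, signalling and metabolism, 188 had a region in either list, of which 15 had an *Nsd2* fl/fl domain (7.98%) and 4 an *Nsd2* ΔIE domain (2.13%). These are counts beside the background and carry no test.

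Among the listed cell type markers, 3 epithelial genes were the nearest gene of a domain. *Chga*, which encodes chromogranin A of enteroendocrine cells, was nearest to an *Nsd2* fl/fl domain of 15372 bp, 61.9% of it in 2 *Nsd2* ΔIE regions. That domain began at 102532004, past the end of *Chga* at 102531286, and did not cover the gene. *Vil1* had the domains described above, and *Cdx1*, an intestinal homeobox factor, an *Nsd2* fl/fl domain of 10071 bp, 69.2% of it in 2 *Nsd2* ΔIE regions. These were 3 of the 10 epithelial markers with a region in either list, and *Vil1* alone had an *Nsd2* ΔIE domain. *Vil1* can be read as an epithelial marker only with the reserve given above. None of the 6 smooth muscle and fibroblast, 4 immune and 5 enteric neuron and glia markers with a region had a domain in either list, counts too small to set apart from the background of 3.57% and 0.88%. Genes outside these short lists were also nearest to domains. Examples are *Col6a1*, a collagen gene (15020 bp in *Nsd2* fl/fl), and *Cd300a*, a receptor of immune cells (10131 bp in *Nsd2* ΔIE), both picked after their values were seen. The *Cd300a* domain ended at 114766543, before the start of the gene at 114780006. A region of this mark does not measure expression, and the part of cell composition in the domains was not tested.

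Transcriptional regulators supplied further domains. The background over all genes with a region was 3.57% for *Nsd2* fl/fl and 0.88% for *Nsd2* ΔIE domains. Among intestinal epithelial transcription factors, 1 of 19 genes with a region had an *Nsd2* fl/fl domain and none an *Nsd2* ΔIE domain. Among nuclear receptors, 4 of 30 genes with a region had an *Nsd2* fl/fl domain and 1 had an *Nsd2* ΔIE domain. *Rxra*, the partner of many nuclear receptors, had 3 *Nsd2* fl/fl domains, of 21735, 13159 and 11830 bp, and 2 *Nsd2* ΔIE domains, of 12214 and 12079 bp. The widest of the former held the 12214 bp domain whole, and the others were met by smaller regions over 72.2% and 2.49% of their width. *Ppard*, a receptor for fatty acids, had an *Nsd2* fl/fl domain of 19406 bp with 1 *Nsd2* ΔIE region of 3813 bp, which did not hold the listed TSS. *Rara*, a retinoic acid receptor, had one of 13743 bp, 54.2% covered, and *Nr2f6*, an orphan receptor, one of 11766 bp, 20.1% covered. Among histone and chromatin regulators, *Nsd2* fl/fl domains were listed for the H3K4 methyltransferase gene *Kmt2b* (12739 bp, absent, nearest region 1773 bp away) and the deacetylase gene *Hdac4* (12322 bp, absent). *Hdac4* also had an *Nsd2* ΔIE domain, of 10025 bp, in the intergenic sequence near it. None of the 13 H3K36 methylation enzyme genes with a region had a domain in either list, a count too small to set apart from the background.

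In the lists of signalling and metabolism, domains were at single genes or a few. Over all genes with a region, 3.57% had an *Nsd2* fl/fl and 0.88% an *Nsd2* ΔIE domain. The lists are short, and nothing is read from how their counts differ from this background. In the Wnt and Notch list 3 of 24 genes with a region had an *Nsd2* fl/fl domain and none an *Nsd2* ΔIE domain. Beside *Jag2* these were *Tcf7* (12686 bp, 56.0% covered by 3 regions) and *Tcf7l1* (11304 bp, absent), both transcription factors of the Wnt pathway. The list does not hold every gene of these pathways. The ligand genes *Wnt7b*, with a domain in both libraries, and *Wnt4*, with an *Nsd2* ΔIE domain of 10534 bp, and the Notch target *Hes5*, with an *Nsd2* fl/fl domain of 12737 bp, lie outside it and were picked after their values were seen. *Smad3*, which transmits TGF-beta signals, had an *Nsd2* fl/fl domain of 12067 bp, 12.2% covered, as the single gene of 10 in its list. *Acly*, which makes cytosolic acetyl-CoA for fatty acid and cholesterol synthesis, had one of 13213 bp, 32.3% covered, as the single gene of 22. Its start lay 455 bp from the end of the domain and outside the *Nsd2* ΔIE region. None of the 15 tight junction and adhesion genes and none of the 9 ER stress and JNK genes with a region had a domain in either list. These counts are too small to set apart from the background. The lists are not complete, and *Wfs1*, the endoplasmic reticulum gene with an *Nsd2* ΔIE domain of 17626 bp, lies outside them.

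The domains were spread over the genome with a few groups. Every autosome had *Nsd2* fl/fl domains, from 9 on chromosomes 3 and 18 to 71 on chromosome 2. As a share of the regions of the chromosome this was 1.41% on chromosome 3 and 1.49% on chromosome 18, and 4.02% on chromosome 2, next to 4.08% on chromosome 10 and 4.07% on chromosome 11. In *Nsd2* ΔIE chromosome 4 had the most, 16, or 0.862% of its regions, while the share was 1.13% on chromosome 10 and 1.05% on chromosome 15, and chromosomes 3 and 13 had none among 815 and 796 regions. Within 50 kb of another domain of their list lay 130 *Nsd2* fl/fl domains (19.3%), in 61 groups, and 9 *Nsd2* ΔIE domains (5.56%), in 4 groups. These shares depend on the number of domains, 675 against 162. They were not taken at equal numbers or over all regions, so the lists cannot be compared by them. The largest group, of 4 domains, spanned 142563 bp of chromosome 10 at *Matk*, *Gm16315*, *Fzr1* and *Gm48552*. The *Gm16315* domain was kept there and the other 3 met smaller regions. The single *Nsd2* ΔIE group of 3 was that of *Mroh2a*, *Hjurp* and *Trpm8*.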

How the data were processed

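The authors called H3K36me2 regions separately in each of 2 colon CUT&Tag libraries and deposited, for each region, its position, width, nearest transcript, feature, distance to the TSS and a summed signal, a whole number with no stated scaling to depth. The submitters' processing notes name Bowtie2, deepTools, SEACR and ChIPseeker without versions, and the build hg38. Of 18043 transcripts shared with a GRCm38.p6 table, 199 have the same start, so that build is not the lists' either, and no position of one was set against the other except to check the printed promoters. For those of *Vil1*, *Acly* and *Wfs1* the starts matched after the shift of the neighbouring genes, for *Ppard* within 71 bp, and for *Jag2* and *Nudt14* within 3 kb.

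Regions of at least 10000 bp on the 19 autosomes were compared by position with the other list (overlap of at least 1 bp) in Python 3.11.15 with pandas 2.3.3, numpy 2.4.6 and scipy 1.17.1. The functions, tested on simulated lists, recovered 4000 of 4000 outcomes. The members and gene lists were chosen with earlier results of these data known. Genes were named by rule: the nearest genes of the 10 widest domains of each list, the 5 widest kept pairs by shared length, the 5 widest absent domains, the 5 domains meeting the most regions, 3 on either side of the limit, and list members with a domain (at most 4 per list). Not every gene that this rule covers is reported here. Alternatives were other width limits, equal numbers, merging, all chromosomes, overlap rules, the stronger 50% of the other list, omission of regions of high signal and, added after seeing the data, joining at the larger smallest gap.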

Additional observations from a re-analysis of the deposited data

Results flagged for a closer look

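Each list also held 1 region of domain width outside the numbered chromosomes, on an unplaced contig and annotated to *LOC118568479*. It was 12455 bp wide in *Nsd2* fl/fl, with a signal of 50.8 per bp, and 14957 bp wide in *Nsd2* ΔIE, with 40.4 per bp. The regions were flagged because they lie in data that the comparisons did not use.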

How the results depend on the processing

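Of 86 alternative values, 54 moved by less than their counting interval or by less than 1.5 times a count, and 32 moved by more. With a width limit of 8000 bp there were 1620 *Nsd2* fl/fl and 487 *Nsd2* ΔIE domains, of which 8.09% of the former were kept, 60.7% and 49.1% met smaller regions only, 31.2% and 24.4% were absent, and 48.6% of the former lay at promoters. With a limit of 15000 bp there were 108 and 18, of which 87.0% and 72.2% met smaller regions only, 8.33% and 0% were absent, and 70.4% and 77.8% lay at promoters. With equal numbers, 12.7% and 12.9% were kept, 64.4% of the *Nsd2* fl/fl regions met smaller ones only, and 27.0% of the *Nsd2* ΔIE regions were absent. With regions within 1 kb merged there were 297 *Nsd2* ΔIE domains, and 7.67% of the *Nsd2* fl/fl domains were kept. Where kept meant that 1 region covered 50% of the domain, 11.9% and 38.9% were kept and 65.3% and 45.7% met less. Against the stronger 50% of the lists by summed signal, 56.4% and 52.5% met smaller regions only and 37.9% and 24.1% were absent. With promoters of 1 kb the promoter shares were 48.6% and 45.7%. The causes were not tested. No paired analysis was possible because there was 1 library per genotype. No read number is given for either library, and the precision of a single width is therefore unknown.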
